A study of Mus musculus with 8 samples.

Results

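The broad open regions of haematopoietic stem cells (HSC) are wide stretches of accessible chromatin shared by every library of this ATAC-seq study. Peaks of the 8 deposited lists on chromosomes 1 to 19 were merged where they overlapped. A region was kept when it was called in all 8 libraries, spanned at least 2000 bp after merging, and held in each library a peak of at least 1500 bp. This left 453 broad regions of 88724 merged regions, and of 48684 regions called in all 8 libraries. The other 48231 shared regions served as the comparison. The members were chosen by these widths, so widths are given below as a description.

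The cells were long-term HSC sorted from mouse bone marrow, and 5000 nuclei per library were treated with transposase for 30 min at 37 °C. All mice carried Vav1-cre, a recombinase driver of blood cells, with an iMOS Bcl11a construct in a MUT or a WT form. The mice were aged 2 to 3 months by their sample labels and 3 months by the design text. From each genotype a T1 and a T2 population was sorted, giving 4 groups (MUT T1, MUT T2, WT T1 and WT T2) of 2 libraries each, set up to ask about Bcl11a within HSC and about effects of its overexpression on neighbouring wild-type HSC. Which population holds a transgene, what the construct carries and whether replicates are separate animals were not stated in the labels, so p-values measure the spread between these libraries, which may be technical.

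In ATAC-seq a transposase inserts adapters into accessible DNA, and fragments pile up over promoters and enhancers. Promoters of housekeeping and many regulatory genes lie in CpG islands, stretches rich in GC and in the CpG dinucleotide, which are usually unmethylated and kept poor in stable nucleosomes. Cell-type-restricted promoters are more often CpG-poor, and distal enhancers are usually short. A peak caller such as MACS2 reports how far a summit rises above a local background, so width and enrichment are separate properties of a peak.

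The promoters of 5 broad regions are shown because they span the classes found at these regions. Each is the RefSeq sequence (GRCm38.p6) from 250 bases before to 50 bases after the annotated start, read 5′ to 3′ on the strand of the gene, with each CpG in capitals. Ubtf (chr11:102319047-102319346, minus strand) lies in the widest broad region and is CpG-rich. Mdga1 (chr17:29887833-29888132, minus strand) lies in the widest broad region of the intermediate class, and Wls (chr3:159839400-159839699, plus strand) in the widest of the CpG-poor class. Cbfb (chr8:105170424-105170723, plus strand) and Ier5 (chr1:155099587-155099886, minus strand) are genes of the HSC factor and immediate early lists described below whose start lies in a broad region.
Ubtf: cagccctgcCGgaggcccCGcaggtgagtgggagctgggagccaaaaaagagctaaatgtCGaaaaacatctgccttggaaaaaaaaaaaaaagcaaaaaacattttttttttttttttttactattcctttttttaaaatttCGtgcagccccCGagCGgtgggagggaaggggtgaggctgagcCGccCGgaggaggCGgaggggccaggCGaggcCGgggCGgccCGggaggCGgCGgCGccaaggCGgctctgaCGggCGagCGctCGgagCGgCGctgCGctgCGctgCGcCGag
Mdga1: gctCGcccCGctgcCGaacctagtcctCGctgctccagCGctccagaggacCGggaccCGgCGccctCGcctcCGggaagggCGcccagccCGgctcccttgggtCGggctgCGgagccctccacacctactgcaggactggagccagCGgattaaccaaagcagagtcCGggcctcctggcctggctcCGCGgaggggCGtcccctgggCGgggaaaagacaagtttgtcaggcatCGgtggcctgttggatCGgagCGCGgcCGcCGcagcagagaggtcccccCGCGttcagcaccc
Wls: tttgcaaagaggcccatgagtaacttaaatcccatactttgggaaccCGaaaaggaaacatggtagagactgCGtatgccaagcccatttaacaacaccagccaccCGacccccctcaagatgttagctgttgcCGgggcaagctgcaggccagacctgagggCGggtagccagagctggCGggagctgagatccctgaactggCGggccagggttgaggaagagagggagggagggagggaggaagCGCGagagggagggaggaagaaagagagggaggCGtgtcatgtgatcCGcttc
Cbfb: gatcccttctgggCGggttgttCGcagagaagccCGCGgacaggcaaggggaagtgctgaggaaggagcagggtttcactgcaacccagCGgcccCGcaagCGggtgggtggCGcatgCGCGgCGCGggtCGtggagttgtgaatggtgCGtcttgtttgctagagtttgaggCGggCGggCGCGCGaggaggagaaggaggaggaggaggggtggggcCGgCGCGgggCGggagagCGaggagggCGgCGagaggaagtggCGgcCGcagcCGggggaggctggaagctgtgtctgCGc
Ier5: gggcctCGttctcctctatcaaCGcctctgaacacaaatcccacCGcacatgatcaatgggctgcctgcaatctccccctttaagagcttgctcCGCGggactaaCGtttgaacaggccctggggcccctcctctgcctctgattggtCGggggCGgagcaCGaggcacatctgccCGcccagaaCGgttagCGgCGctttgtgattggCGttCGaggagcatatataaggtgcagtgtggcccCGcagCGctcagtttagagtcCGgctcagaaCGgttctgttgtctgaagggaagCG

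The letters differ most in how many CpG they hold. The Ubtf promoter had 27 CpG, an observed over expected ratio of 1.04, and Cbfb had 30, a ratio of 0.987. Mdga1 had 28 CpG but a GC share of 71.3%, so its ratio was 0.735, just under the 0.75 set for CpG-rich. Ier5 had 20 CpG (ratio 0.766) and Wls 11 (ratio 0.460). The GC box letters GGGCGG, searched on both strands, occurred 4 times at Cbfb, 2 times at Ubtf and Ier5, and once at Mdga1 and Wls. Ier5 also held CCAAT letters 2 times.

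Most broad regions lay at genes. An end of a protein-coding gene span lay within 1 kb of 369 of the 453 broad regions (81.5%), against 13000 of 48231 other shared regions (27.0%). A wide region reaches more positions by its length alone, so the distance was also taken from the midpoint, which gave 73.3% of broad regions and 24.6% of other regions. Regions far from genes made up a smaller share of the broad ones. Far regions lay over 1 kb from any protein-coding gene end or start. They also overlapped no protein-coding gene that lacks an entry in the promoter table. By this definition 28 of 432 broad regions (6.48%) were far, against 29316 of 46688 other regions (62.8%). By start alone, 122 broad (28.2%) and 36319 other regions (77.8%) had no protein-coding start within 1 kb. These starts come from a RefSeq promoter table in which some genes have no entry, and chromosome 18, with 21 broad regions, has no entry, so it is left out of counts of regions by their starts.

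The promoters inside broad regions were richer in CpG than those of other shared regions. A protein-coding start of the table lay inside 302 broad regions. The most CpG-rich promoter was CpG-rich (ratio of at least 0.75 and GC of at least 55%) in 226 of them (74.8%), intermediate in 64 (21.2%) and CpG-poor (ratio under 0.48) in 12 (3.97%). Of the 9684 other shared regions with a start, 4791 (49.5%) were CpG-rich, 3423 (35.3%) intermediate and 1470 (15.2%) CpG-poor. Counted by promoter, the median was 29 CpG per 300 bases over the 436 promoters of broad regions, 22 over the 11766 promoters of other shared regions, and 14 over all 20085 protein-coding promoters of the table. Median GC shares of the same sets were 68%, 62% and 57%. These shares are descriptions: wider regions more often hold several starts, and the class of a region is that of its richest promoter. The other shared regions were also narrower, with a median of 920 bp. Among all shared regions of 2000 bp or more with a start, broad or not, 556 of 841 (66.1%) were CpG-rich.

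The share of CpG-rich promoters was higher in each wider class of region. It was 7.41% of the 27 regions under 500 bp with a start, 29.0% of 1644 regions of 500 to under 1000 bp, 49.1% of 4998 of 1000 to under 1500 bp, 61.7% of 2476 of 1500 to under 2000 bp and 66.1% of 841 of 2000 bp or more. The narrowest class rests on few regions. The CpG-poor share ran the other way, with 63.0%, 30.8%, 13.6%, 8.76% and 7.37% in the same order. The widest class takes in every shared region of that width, broad or not, so the broad regions raise its CpG-rich share.

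**Figure D1:**
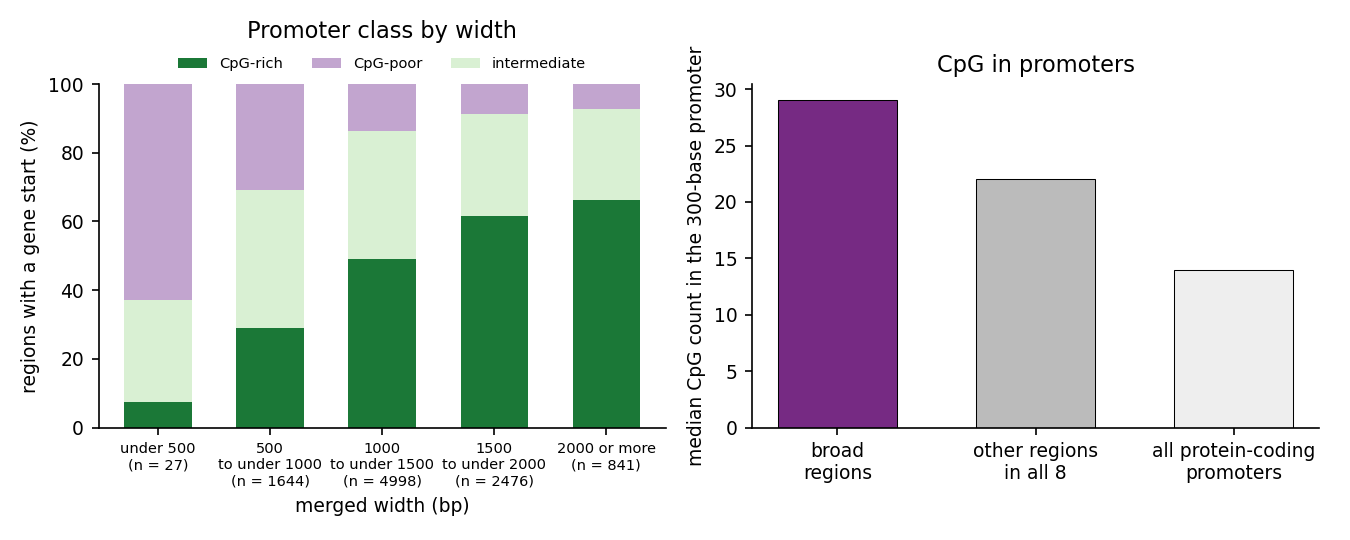
Left, promoter class of shared regions with a protein-coding start, as a percentage of regions, by merged width in bp (number of regions under each bar). Right, median CpG count in the 300-base promoters of broad regions (29), of other shared regions (22) and of all protein-coding genes in the table (14).

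Among the 12 CpG-poor broad regions were Wls, whose product escorts Wnt ligands out of the cell, Vim, the intermediate filament gene, Stat6, a signal transducer of interleukin-4, and Tfr2, a transferrin receptor. These 4 of the 12 were chosen after their values were seen. Their merged widths were 3048 bp (Wls), 2758 bp (Vim), 2405 bp (Stat6) and 2061 bp (Tfr2). A CpG-poor promoter was thus found at a region over 3 kb wide.

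GC box letters were commoner, and ETS, CRE and CCAAT letters rarer, in promoters of broad regions than in those of other shared regions. The GC box letters (GGGCGG or CCGCCC) were in 78.7% of broad-region promoters, 67.2% of those of other shared regions and 47.0% of all promoters. Within CpG-rich promoters the shares were 87.9%, 81.0% and 81.0%. TATAAA was in 4.59%, 6.18% and 12.7%. The ETS letters CCGGAAGT were in 3.67% of broad-region promoters (16), against 8.39% of other shared and 5.28% of all promoters. Restricted to CpG-rich promoters the ETS shares were 3.79%, 10.03% and 9.43%. CCAAT was in 24.8% of CpG-rich promoters of broad regions, 34.5% of CpG-rich promoters of other shared regions and 34.0% of all CpG-rich promoters. The CRE letters TGACGTCA were found in 1.15%, 3.38% and 2.30% of promoters, and the YY1 letters AAGATGGC in 2.06%, 4.31% and 3.06%, again in the order broad, other shared, all. CACGTG, the E box, was in 10.6%, 10.3% and 7.89%. Both strands were searched, TGACGTCA and CACGTG read the same on both, and none of the differences was tested.

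Broad regions more often held several gene starts. Starts of 2 genes lay inside 49 of 432 broad regions (11.3%) and of 2 or more genes inside 748 of 46688 other regions (1.60%). In 46 broad regions (10.6%) starts faced both strands, against 729 other regions (1.56%). Both shares are over all regions, and a start lay inside 69.9% of broad but only 20.7% of other regions. Among all shared regions of 2000 bp or more, broad or not, a start lay inside 841 of 1335 (63.0%). A wider region can also hold more starts by length alone, which was not tested. The widest broad region with table starts of 2 genes held Ddit3, a stress-induced transcription factor, and Mbd6, a methyl-CpG-binding domain protein, on opposite strands. That region (chr10:127288347-127291401) was 3055 bp wide. Mrps6, a mitochondrial ribosomal protein, and Slc5a3, an inositol transporter, shared another on 1 strand (chr16:92057410-92059443).

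The widest broad region (4256 bp, chr11:102316476-102320731) lay at Ubtf, which encodes an RNA polymerase I factor of the ribosomal DNA. Its longest peak was 1689 and 1758 bp in the MUT T1 pair, 4145 and 1811 bp in the MUT T2 pair, 3091 and 2028 bp in the WT T1 pair, and 3067 and 2977 bp in the WT T2 pair. MUT T2 replicate 1 stood above all others and the genotypes overlapped. Its most significant peak had a fold enrichment of 3.25 to 3.87, below the library medians given further on. The Adgrl2 region (3546 bp, chr3:148987272-148990817), at a latrophilin adhesion receptor gene, had a peak of 3483 bp in MUT T1 replicate 1 and of 1614 to 2016 bp in the other libraries. In both cases the merged width came from 1 or a few libraries.

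Other wide regions were wide in every library. Kdm6b encodes a histone demethylase of the Polycomb mark, and its region (3166 bp, chr11:69408608-69411773) held a longest peak of 3064 and 2825 bp in the MUT T1 pair, 3128 and 3113 bp in the MUT T2 pair, 3024 and 3107 bp in the WT T1 pair, and 3134 and 3086 bp in the WT T2 pair. MUT T1 replicate 2 was the lowest at Kdm6b, the other 7 libraries lay between 3024 and 3134 bp, and the genotypes overlapped. The region over Rn18s-rs5, an 18S ribosomal RNA-related pseudogene (3532 bp, chr17:39843219-39846750), had longest peaks of 3412 to 3528 bp in the 8 libraries, the smallest SD (44.0 bp over 8 libraries) among the 25 widest. Copies of ribosomal DNA are near-identical and no label says how reads with several positions were placed, so this region is uncertain. Arid1b, a subunit of the BAF remodelling complex, had a region of 3068 bp with longest peaks of 2639 to 3062 bp.

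Of the 25 widest regions, 18 were at least 3 kb. They included genes of transcription and RNA control: Bhlhe40, a basic helix-loop-helix repressor (3266 bp), Nipbl, the cohesin loader (3220 bp), Tent5a, a poly(A) polymerase (3209 bp), Zbtb16, a zinc-finger repressor of progenitors (3070 bp), Cpeb2, a translational regulator (3069 bp), and Rreb1, a zinc-finger factor (3005 bp). Foxo1, a forkhead factor that responds to insulin signalling, had 2978 bp, Cnot6l, a deadenylase, 2969 bp, and Mex3c, an RNA-binding ubiquitin ligase, 2887 bp. Signalling genes were Gas1, a hedgehog co-receptor (3057 bp), Wls (3048 bp), Fzd5, a Wnt receptor (3001 bp), Rap2b, a small GTPase (2933 bp), and Ywhaz, a scaffold protein of phosphorylated partners (2865 bp). The others were Mdga1, an immunoglobulin-domain surface protein (3424 bp), LOC108167694 (3132 bp), Mpped2, a metallophosphoesterase (2889 bp), and the Ddit3 and Mbd6 pair. There were also 2 regions between protein-coding genes, of which the nearest were Atp5mpl (3223 bp) and Ppara (2979 bp). At Bhlhe40 no single peak exceeded 2324 bp, so its merged width joins several peaks.

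**Figure D2:**
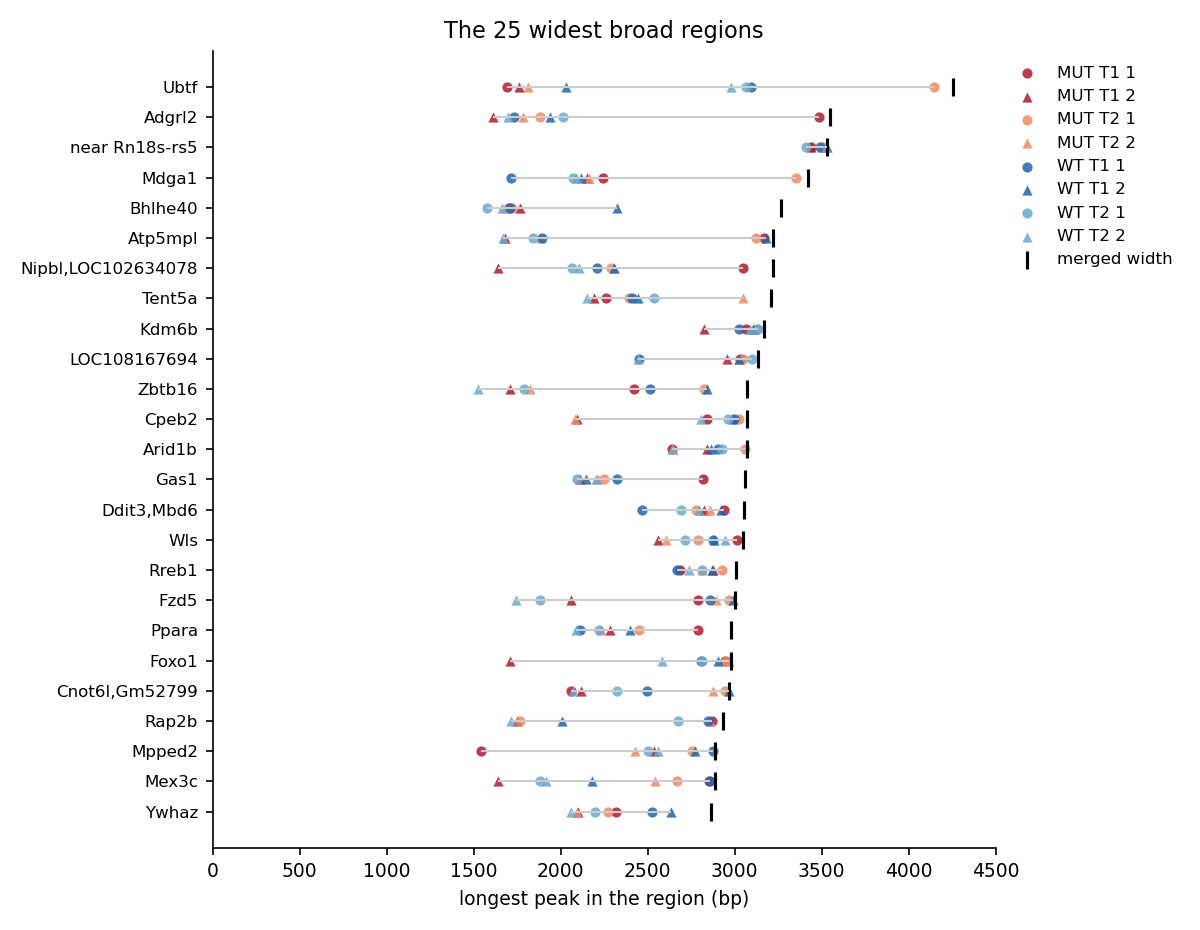
Longest peak in bp in each library (points) and merged width (tick) for the 25 widest broad regions, named by the gene whose start or span they hold or by the nearest gene. Points of Kdm6b lie between 2825 and 3134 bp, while those of Ubtf spread between 1689 and 4145 bp.

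Merged widths of all 453 ran from 2001 to 4256 bp with a median of 2211 bp (quartiles 2073 and 2407 bp), against a median of 920 bp for the other shared regions. Together they covered 1039 kb. In 391 (86.3%) each library had a single peak, and in 73 (16.1%) the longest peak was at least 2 kb in all 8 libraries. The narrowest members were Gphn and Dipk2a (2001 bp) and Lasp1, Smurf2 and Nmt2 (2003 bp). Those just outside included Ppp1r16b and the Hras and Lrrc56 region (1999 bp), Sbno1 (1998 bp) and Cyth1 (1997 bp). On the other threshold, the shortest of a region's 8 longest peaks was 1500 bp at Cxcr4 and Bicral, 1501 bp at Ccnj and Arhgap10 and 1502 bp at Mgat4b, and 1499 bp at Gpc6, 1498 bp at Hnrnpa0, 1497 bp at Cxxc5 and Acvr2a and 1493 bp at Rock2. A further 933 shared regions were at least 2000 bp wide with a longest peak under 1500 bp in some library, and 397 passed on peaks but were narrower than 2000 bp.

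A broad region lay at 515 of 20665 protein-coding genes (2.49%), counting genes whose start lay inside, whose span held the midpoint or whose end lay within 1 kb, with genes of chromosome 18 counted by span and end. Long genes can hold a midpoint by length alone, which was not tested. Chromatin regulators were the list with the highest share, at 6 of 25 (24%). By start alone it was 3 of 20 with a table entry (15%), Kmt2a, Ep300 and Dnmt3a. The same share over all genes with an entry was 350 of 16457 (2.13%). Kmt2a, a histone methyltransferase needed for HSC, had a region of 2323 bp (chr9:44880958-44883280). Its longest peak was 2272 and 2186 bp in the MUT T1 pair, 2184 and 2234 bp in the MUT T2 pair, 2323 and 2287 bp in the WT T1 pair, and 2198 and 2274 bp in the WT T2 pair, and its summit lay at the same base in all 8. The genotypes overlapped at Kmt2a and the libraries differed little. Dnmt3a, the de novo DNA methyltransferase, had longest peaks of 2413 to 2566 bp in MUT and 2306 to 2605 bp in WT libraries (chr12:3806150-3808787). Nsd1, a histone methyltransferase, had 2295 to 2699 bp in MUT and 2386 to 2616 bp in WT libraries. Ep300, an acetyltransferase, had 1802 to 2150 bp and 1921 to 2109 bp, and Tet3, a methylcytosine dioxygenase, 1678 to 2105 bp and 1746 to 2296 bp, in MUT and in WT libraries. The table start of Tet3 lay outside its broad region, in a shared region of 1314 bp. Kdm6b is described above, and the ranges of MUT and WT libraries overlapped at all 6.

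Lists of HSC identity held 1 broad region each, beside the 2.49% of all genes. Among HSC factors 1 of 24 (4.17%) had one, Cbfb, the DNA-binding partner of RUNX proteins, and among HSC surface and signalling genes 1 of 25 (4%), Cxcr4, the receptor that holds HSC in their niche. With 1 gene each, these shares say nothing particular about the lists. The starts of 18 of 21 HSC factor genes in the promoter table (85.7%) lay in a shared region, beside 10396 of 16457 protein-coding genes (63.2%), with a median width of 1521.5 bp (all genes 1335 bp). Longest peaks at Cbfb were 1680 to 1955 bp in MUT and 1653 to 1967 bp in WT libraries. Immediate early genes had 2 of 25, Jun (1739 to 2345 bp in MUT, 1681 to 2254 bp in WT libraries) and Ier5 (2091 to 2445 bp in MUT, 2325 to 2420 bp in WT libraries). Jun encodes an AP-1 subunit and Ier5 a stress-inducible regulator. Cell cycle and survival genes had 2 of 25, the kinase inhibitor Cdkn2c (2397 bp) and the retinoblastoma gene Rb1 (2145 bp), and cytokine feedback genes 1 of 24, Socs1 (2172 bp).

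Genes of other blood cells and of stroma had at most 2 members with a broad region per list, beside 2.49% of all protein-coding genes. Granulocyte and monocyte genes had 2 of 25, the myeloid factor Cebpa (2148 bp) and the receptor gene Csf2ra (2084 bp). B lymphoid genes had 1 of 24, Bach2 (2118 bp), a transcriptional repressor, and stromal and endothelial genes 1 of 24, Vim. The table starts of Csf2ra and Bach2 lay in no shared region, so these 2 were counted by their span or end. By start alone, granulocyte and monocyte genes had 1 of 21 and B lymphoid genes 0 of 19, beside 2.13% of all genes. No broad region lay at T and NK lymphoid genes (of 24), erythroid genes (of 23), cytosolic ribosomal protein genes (of 25) or developmental genes with CpG islands (of 25). With at most 2 genes per list, these counts say nothing particular about the lists. All 18 ribosomal protein genes of the list with a table entry had their start in a shared region, beside 63.2% of all genes, and the median width was 1182.5 bp. The defining markers of each cell type were checked by their starts, with the same 63.2% as background: 8 of 9 HSC markers, 0 of 4 B cell, 1 of 5 T and NK cell (Tcf7), 0 of 5 neutrophil and monocyte, 0 of 3 erythroid and 3 of 3 stromal and endothelial markers (Kdr, Cxcl12 and Lepr) lay in a shared region, and none in a broad one. The part of stromal cells in any broad region was not tested. No broad region lay at Bcl11a.

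Gene families named by symbol were counted after the values were seen, and none of their shares was tested. Over all protein-coding genes a broad region lay at 515 of 20665 (2.49%). A broad region lay at 4 of 8 Kmt genes (Kmt2a, Kmt2e, Kmt5a and Kmt5b, histone methyltransferases), 6 of 20 Hnrnp genes (nuclear RNA-binding proteins), 3 of 10 Arid genes, 3 of 10 Fzd genes (Wnt receptors Fzd1, Fzd5 and Fzd7), 7 of 41 Fox genes, 6 of 40 Zbtb genes, 2 of 16 Klf genes and 3 of 31 Arhgap genes. Histone genes had 10 of 67, in 6 regions that often held neighbours, such as H2ac20 with H2ac21 (2643 bp) and H1f4 with H2bc6 (2383 bp). Ribosomal protein genes had 1 of 76 (Rpl7), and 0 of 1104 olfactory receptor and 0 of 53 keratin genes had one. Beside 2.49% of all genes, the ribosomal protein and keratin counts say nothing particular about these families. Some histone genes are similar copies of each other, and no label says how reads with several positions were placed, so their counts are uncertain. Bicral, a subunit of a BAF-type complex, and Elf2, an ETS factor, had 2 broad regions each. Those of Elf2 (chr3:51275918-51278014 and chr3:51339873-51342292) both held a start.

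Non-coding genes lay in some broad regions. Spans of lncRNA genes overlapped 97, and tRNA genes 4, of which one between protein-coding genes (2532 bp, chr3:96499473-96502004) overlapped 4 tRNA genes (n-TKctt16, n-THgtg8, n-TGtcc7 and n-TEctc13). Its longest peak was 2493 and 1519 bp in the MUT T1 pair, 2510 and 2407 bp in the MUT T2 pair, 1594 and 1532 bp in the WT T1 pair, and 2424 and 2387 bp in the WT T2 pair. Both WT T1 libraries and 1 MUT T1 library were shorter than each of the other 5. Genes of miRNAs overlapped 5 regions (Mir5130, Mir7238, Mir1956, Mir1945 and Mir707).

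The 28 broad regions far from protein-coding starts and ends, as defined above, lay between protein-coding genes in 20 cases. The other 8 lay within a protein-coding gene span, and 22 of the 28 were over 10 kb from both a start and an end. Some of them overlapped non-coding genes. Those farthest from a gene end lay in Foxp1, a forkhead gene (169345 bp, chr6:99094687-99096779), and near Cyria (165148 bp, chr12:12546113-12548310) and Spdye4c (161184 bp, chr2:128428005-128430017). The Rn18s-rs5 region (103770 bp) and one in Rora, an orphan nuclear receptor gene (96630 bp), followed. A distal region of 2008 bp lay 9641 bp from an end of Gfi1b, a repressor of megakaryocyte and erythroid development (chr2:28597802-28599809). Another lay 20024 bp from Cbfa2t3, a corepressor gene. Gfi1b and Cbfa2t3 were picked after their values were seen.

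Broad regions did not have high fold enrichment. Column 7 of the lists is the authors' fold enrichment of each peak, summit over local background, taken here from the most significant peak of each region. Broad and other regions are compared on it only within a list. The ranking of single regions below uses the lowest of the 8 lists' values, not adjusted for depth. The later search for libraries that stand apart sets its median side by side across lists. Its median over broad regions was 5.37 and 6.09 in the MUT T1 pair, 5.67 and 5.44 in the MUT T2 pair, 5.43 and 5.57 in the WT T1 pair, and 6.10 and 6.41 in the WT T2 pair. Over the other shared regions it was 7.14 and 7.90, 7.80 and 7.37, 7.33 and 7.49, and 8.15 and 8.40 in the same order. Broad regions were thus lower in each of the 8 lists, and 389 of them (85.9%) lay below the others' median in all 8 while 3 (0.662%) lay above it in all 8. The other shared regions were not counted this way, so these shares have no background beside them. The −log10 q of broad regions was nevertheless higher, with medians of 44.2 to 57.1 against 25.5 to 35.8. Low column 7 was not particular to the broad regions. Outside chromosome 18, its median was 5.84 over all 1335 shared regions of 2000 bp or more, broad or not. It was 6.98 at 1500 to under 2000 bp and 8.11 at 1000 to under 1500 bp.

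The recovered pileup and background take the ratio apart. MACS2 forms it as summit pileup plus 1 over local background plus 1, and the deposited −log10 p gave both back for at least 99.99% of peaks in each library. Median summit pileup was 104 to 143 fragments in broad and 44 to 65 in other shared regions, 2.14 to 2.52 times as high across libraries. Median local background was 15.7 to 24.6 fragments in broad and 4.28 to 7.64 in other regions, 3.11 to 3.87 times as high. Wide shared regions as a whole, broad or not, also had a high background. Outside chromosome 18, its median was 6.10 times a library's lowest background at 2000 bp or more. It was 4.76 times at 1500 to under 2000 bp and 1.68 times at 500 to under 1000 bp. Pileup exceeded the others' median in all 8 libraries for 435 of the 452 broad regions where it was recovered, and background for all 452. The missing one is the Rn18s-rs5 region, whose −log10 p is above 300. Such counts over all 8 libraries were not made for the other shared regions. A local background drawn from the same library takes in fragments of the region itself, and no label says whether a control library was used.

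Among regions with a gene start the order of enrichment and background was the same. Column 7 there was 5.48 to 6.54 in broad and 7.40 to 9.11 in other regions, background 16.0 to 25.2 and 9.42 to 14.8, and pileup 106.5 to 146.5 and 94 to 130 fragments. Pileup was thus closer between the sets once both held a start. In regions far from protein-coding genes, as defined above, pileup was 78 to 119 in the 28 broad and 37 to 55 fragments in 29316 other regions.

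**Figure D3:**
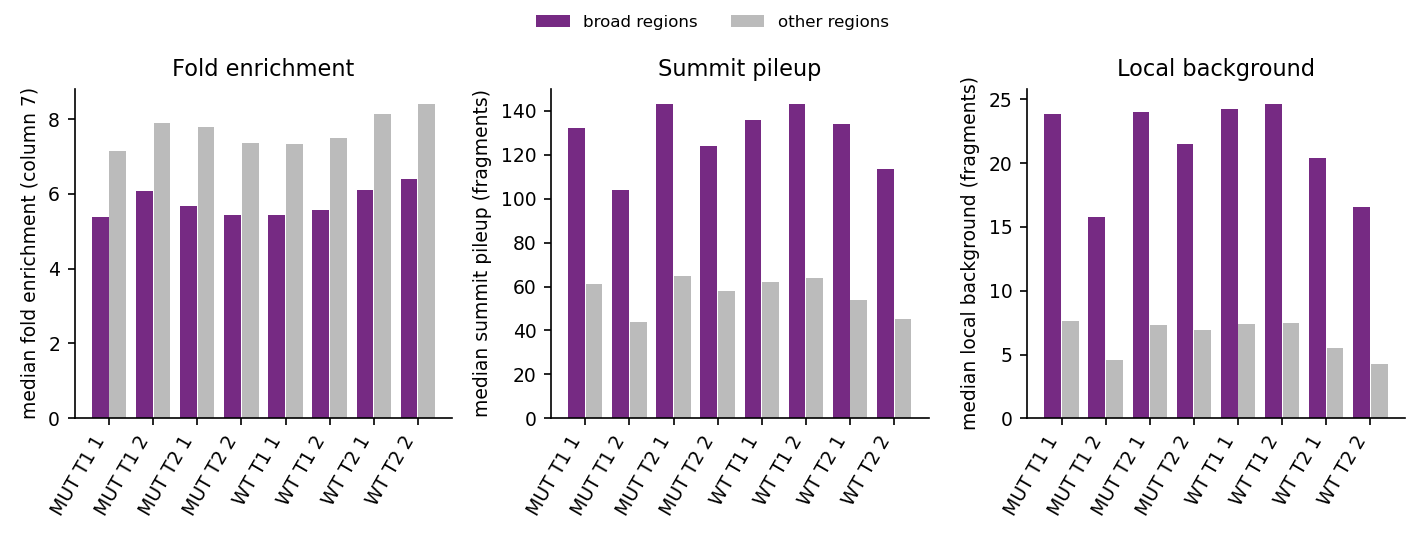
Medians over broad regions (purple) and other shared regions (grey) in each library of fold enrichment (column 7, left), summit pileup in fragments (middle) and local background in fragments (right). Enrichment is lower and pileup and background higher in broad regions in each of the 8 libraries.

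Single regions showed the same range. The highest column 7 in its lowest library belonged to the Mrps6 and Slc5a3 region, with 8.24 and 9.94 in the MUT T1 pair, 8.49 and 8.08 in the MUT T2 pair, 8.72 and 8.26 in the WT T1 pair, and 10.3 and 9.39 in the WT T2 pair, followed by regions at or near Neurl1a, Clasp1, Sh3rf3 and Mfsd13a. Its background was low, at 10.8 to 15.8 fragments. The lowest value was that of the Rn18s-rs5 region (2.55 to 2.87), then Hivep2 (2.62 to 3.79), Gm20346 and Kdm6b (2.89 to 3.34). Hivep2 encodes a zinc-finger factor. Kdm6b had a pileup of 87 to 139 fragments over a background of 25.3 to 43.6. Kdm6b thus combined one of the widest regions with a high background.

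Broad regions reached farther into the gene than away from it, as other shared regions did. In the 172 broad regions with exactly 1 annotated start, the merged region ran a median of 929.5 bp before and 1306.5 bp after the start, and the side after the start was longer in 121 (70.3%). In 7280 other shared regions with 1 start the medians were 501 and 725 bp, and 69.7% were longer after it. The wider region was thus extended on both sides. At Wls, 295 bp lay before and 2752 bp after the start, while Mdga1 had 1801 and 1622 bp.

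Summits sat differently. The median summit lay 42 to 133 bp before the start in the 8 libraries of broad regions, and between 0.5 bp before and 35 bp after it in other regions. Taking each region's median over libraries, 61 of 172 broad regions (35.5%) had the summit after the start, against 3869 of 7280 other regions (53.1%), and 109 (63.4%) had it within 300 bp of the start, against 6340 (87.1%). In a wider region a summit can lie farther from the start by length alone, which was not tested.

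**Figure D4:**
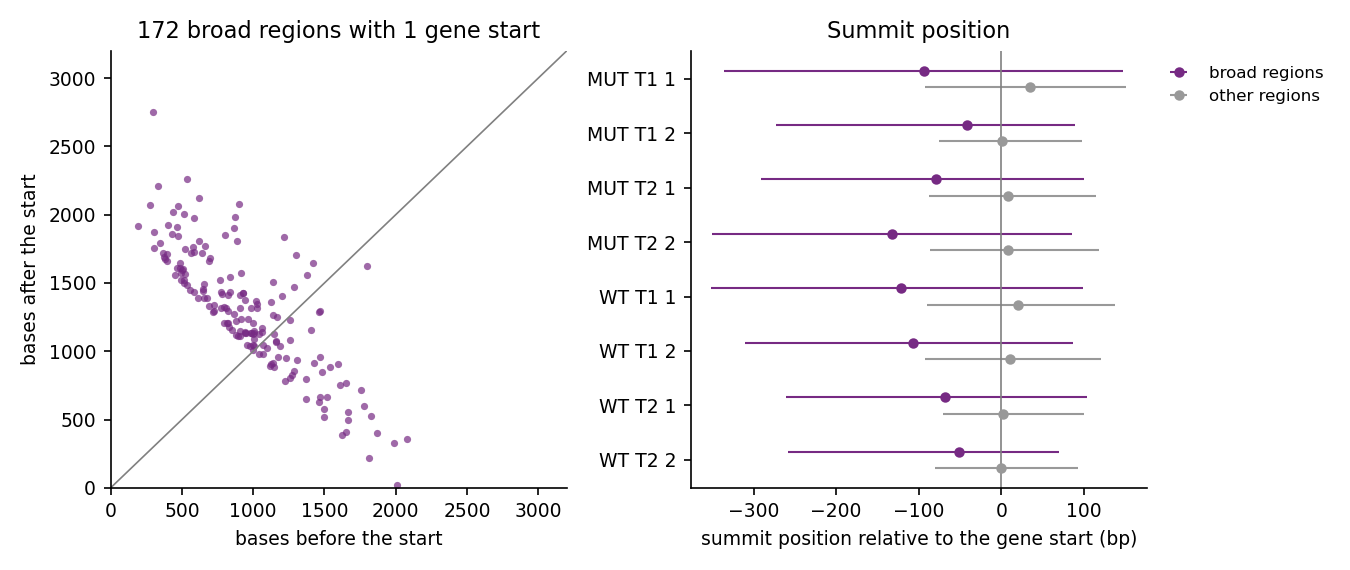
Left, bases before and after the start for 172 broad regions with 1 start, with the line of equality; 121 lie above it. Right, summit position relative to the start in bp per library for broad (purple) and other (grey) regions, with points at the median and lines over the quartiles; broad medians lie 42 to 133 bp before the start.

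The place of the summit also varied more between libraries. The summits of the 8 libraries spanned a median of 411 bp in broad regions (quartiles 217 and 872 bp) and 150 bp in other shared regions (73 and 245 bp). They spanned over 1000 bp in 89 broad (19.6%) and 616 other regions (1.28%). As a share of merged width the medians were close, at 18.3% and 15.3%. The largest span was 2311 bp, in the region nearest Atp5mpl (chr12:111943776-111946998), and the Kdm6b summits spanned 1703 bp.

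The deeper libraries had more and wider peaks. The lowest local background in a library stood for its depth. In fragments per position it was 3.38 and 2.03 in the MUT T1 pair, 3.21 and 3.10 in the MUT T2 pair, 3.24 and 3.29 in the WT T1 pair, and 2.45 and 1.89 in the WT T2 pair. Peaks of at least 2 kb on chromosomes 1 to 19 numbered 662 and 160 in the MUT T1 pair, 517 and 454 in the MUT T2 pair, 628 and 569 in the WT T1 pair, and 311 and 203 in the WT T2 pair. The 3 libraries with a background under 3, MUT T1 replicate 2 and both of WT T2, had the fewest. The lists held 60944 to 73328 peaks. The median longest peak of the broad regions was 2062 and 1826 bp in the MUT T1 pair, 2031 and 2013 bp in the MUT T2 pair, 2053 and 2054 bp in the WT T1 pair, and 1933 and 1860 bp in the WT T2 pair, so the same 3 libraries were lowest. The part of depth in these widths was not tested.

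**Figure D5:**
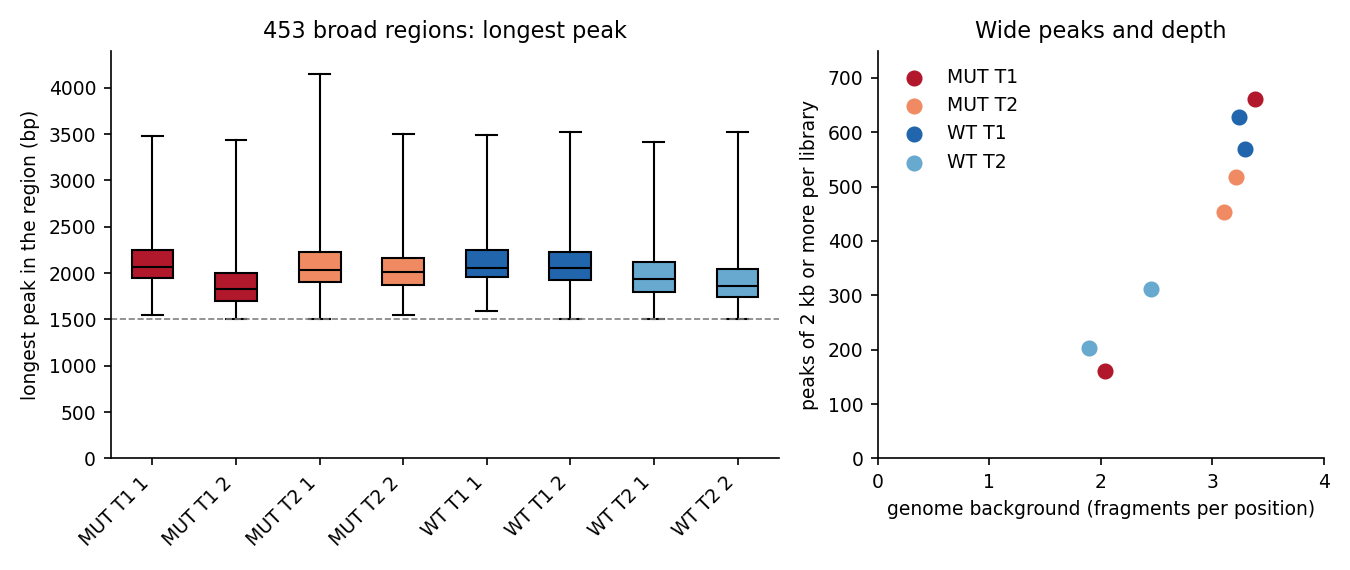
Left, longest peak in bp in each of the 453 broad regions by library (box, quartiles and median; whiskers, lowest and highest; dashed line, the 1500 bp minimum). Right, number of peaks of 2 kb or more against genome background per library; the 3 libraries with a background under 3 had 160 to 311 such peaks and the other 5 had 454 to 662.

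The number of such wide peaks, in broad regions or elsewhere, did not differ beyond the spread between libraries. Many of them lay in broad regions: 296 broad regions held one in MUT T1 replicate 1 and 114 in MUT T1 replicate 2. Peak width chose the broad regions, so nothing is read from this test about them. Effects of genotype or population were not separated from depth here. MUT libraries averaged 448 ± 211 and WT libraries 428 ± 203 such peaks (SD, n = 4 each; exact two-sided permutation p = 0.943). T1 libraries had 505 ± 233 and T2 libraries 371 ± 141 (SD, n = 4 each; exact two-sided permutation p = 0.343). The smallest p these designs allow is 0.0286, and with MUT T1 replicate 2 left out the T1 minus T2 difference was 248 in place of 133.5 (exact permutation p = 0.0571), and without WT T2 replicate 2 it was 77.4 (exact permutation p = 0.6).

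Longest-peak widths were then compared between groups over all 48684 shared regions, with limma on log2 widths centred per library and Benjamini-Hochberg adjustment. No region passed an adjusted p of 0.05 for MUT against WT, MUT T1 against WT T1, MUT T2 against WT T2, T1 against T2 or the genotype by population term (0% called in each). At an unadjusted p under 0.05, limma gave 6.02% of all regions for MUT against WT, 5.57% for MUT T1 against WT T1, 6.48% for MUT T2 against WT T2, 5.49% for T1 against T2 and 6.12% for the genotype by population term. Without MUT T1 replicate 1, which leaves 1 shallow library in MUT T1, these shares were 9.05%, 11.03%, 7.79%, 8.33% and 11.55% in the same order, again with 0 regions called. That lone library is assumed to vary like the other groups. The longest peak in every library was part of the rule that chose the broad regions, so nothing is read from this test about them, and their widths by group are given as values.

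The regions below were chosen after their values were seen, for differences between groups of libraries. Fzd5 had longest peaks of 2789 and 2057 bp in the MUT T1 pair, 2967 and 2893 bp in the MUT T2 pair, 2860 and 2993 bp in the WT T1 pair, and 1880 and 1743 bp in the WT T2 pair. The 3 shortest at Fzd5 were those of the 3 shallow libraries, and MUT T2 and WT T2 did not overlap. Akt1, a kinase of the insulin and growth factor pathway, had 1805 and 1668 bp in the MUT T1 pair, 2077 and 2038 bp in the MUT T2 pair, 2006 and 2060 bp in the WT T1 pair, and 2296 and 2472 bp in the WT T2 pair. Both WT T2 libraries were the longest at Akt1, and MUT and WT libraries overlapped. Cxcr4 had 2460 and 1500 bp in the MUT T1 pair, 1518 and 2523 bp in the MUT T2 pair, 2540 and 2558 bp in the WT T1 pair, and 2591 and 2460 bp in the WT T2 pair. At Cxcr4, 1 library of each MUT group was short and the other 6 lay between 2460 and 2591 bp.

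By chromosome, broad regions made up 1.53% of shared regions on chromosome 3 (39 of 2542), 1.499% on chromosome 17 (34 of 2268) and 1.48% on chromosome 19 (24 of 1619), and 0.430% on chromosome 4 (14 of 3255), the highest 3 and the lowest of the 19. These differences were not tested.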

How the data were processed

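Accessibility was measured by ATAC-seq in 8 libraries of 4 groups. Each library has its own deposited peak list, called per sample. The submitters' processing notes name Bowtie2, SAMtools, MACS2 and mm10 without versions. Any shift of cut sites for the transposase is not stated in the labels. For every peak the authors' caller wrote a position, a score, a fold enrichment (column 7, a ratio of summit to local background), the summit and the −log10 of p and of q. The lowest deposited −log10 q was 3.00. Lists hold no read totals, so depth is known only as the recovered background, and widths and shares carry no counting interval.

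From these lists, peaks overlapping by at least 1 bp were merged and summit pileup and local background were solved from the ratio and −log10 p (tolerance 0.001 in −log10 p; peaks above 300 were left out). Gene spans, starts and 300-base promoters came from RefSeq tables of GRCm38.p6, the same build as mm10, which give no exons, so exonic and intronic positions were not analysed here. A region's CpG class is that of its most CpG-rich protein-coding start. Widths were tested with limma 3.58.1 (R 4.3.3) on log2 longest-peak widths in 1 fit of all 8 libraries. Wide peaks per library were tested with exact permutation tests over 70 arrangements (Python 3.11.15, scipy 1.17.1). The width test and the recovery of pileups were tested on simulated data. Replicate numbers were not used to pair the libraries in the main tests, and whether same-numbered libraries share an animal is not stated. Chromosome X and Y regions were not members, and planned promoters of ribosomal protein genes were not shown because none on the list had a broad region.

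Named regions are the 25 widest, the 5 highest and lowest by column 7, the 5 farthest from a gene end, those at each threshold, listed genes with a broad region and genes with 2 or more. The members and lists were chosen with earlier results of these data known. Alternatives changed the width and merging thresholds, the q threshold, distances, CpG classes, centring, a depth term, the replicate block and single libraries. A few regions that meet the naming rule are not reported here.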

Additional observations from a re-analysis of the deposited data

Results flagged for a closer look

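The 4 MUT and the 4 WT libraries were each searched for a library that stands apart, in the longest peak at the 25 widest regions and in 4 medians or counts per library, 58 groups of 4 in all. In 7 of them 1 library lay far from the other 3. Chance marks about 1 group in 20 where values did not choose the items, which does not hold here: all 7 are longest peaks at regions ranked by merged width, which a single long peak raises, so they are given as values. At Ubtf the peak of MUT T2 replicate 1 was 4145 bp, against 1689 to 1811 bp in the other MUT libraries, and that of WT T1 replicate 2 was 2028 bp, against 2977 to 3091 bp in the other WT libraries. At Adgrl2 the peak of MUT T1 replicate 1 was 3483 bp, against 1614 to 1882 bp. At Mdga1 it was 3354 bp in MUT T2 replicate 1, against 2153 to 2246 bp, and 1715 bp in WT T1 replicate 1, against 2069 to 2119 bp. In the region nearest Atp5mpl it was 3181 bp in WT T1 replicate 2, against 1669 to 1892 bp in the other WT libraries. At Foxo1 it was 1711 bp in MUT T1 replicate 2, one of the 3 shallow libraries, against 2946 to 2969 bp in the other MUT libraries.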

How the results depend on the processing

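The number of broad regions depends on its thresholds. It was 948 with peaks of at least 1000 bp, 73 with at least 2000 bp, 18 with a merged width of at least 3 kb, and 429 to 534 with single libraries left out (453 with all). In the 5 libraries with a background above 3, an alternative chosen after seeing the data, it was 720, which overlapped 436 (96.2%) of the 453. Merging peaks up to 100 bp apart gave 454, and a −log10 q of at least 5 gave 453. The share at a gene end was 66.7% for regions of at least 3 kb, 73.3% from the midpoint, and 81.2% to 82.5% with single libraries left out. The CpG-rich share was 88.4% at a ratio of 0.6 and GC of 50%, and 73.2% to 74.5% with single libraries left out.

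The MUT minus WT difference in wide peaks, 20.5, had no stable direction: it was −54.4 to 117 with single libraries left out. It was below 0 at −50.8 and −2.42 without replicate 1 of MUT T1 or of MUT T2. Without the first or second WT T2 library it was −18.4 and −54.4. In the 5 deeper libraries it was −54.2 (exact permutation p = 0.5, 10 arrangements). Those 5 hold no WT T2 library, so genotype cannot be told apart from population there. T1 minus T2 was 77.4 to 248. Deviations of same-numbered libraries were weakly correlated between groups (0.0114 to 0.0618), which does not settle whether they share an animal. With the replicate block the differences were 20.5 (exact permutation p = 0.875) and 133.5 (exact permutation p = 0.375), and limma called 0 regions. Over the 5 width contrasts in 14 settings each, limma called 0 regions in all 70 fits, with a lowest adjusted p of 0.0732. The share of regions at an unadjusted p under 0.05 moved by over 1.5 times without MUT T1 replicate 1, in all contrasts but MUT T2 against WT T2, and without centring in the genotype by population term (9.45%).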

Other observations

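Chromosome X lay outside the rule. By the same widths it held 3 broad regions of 893 called in all 8 libraries, of 2558, 2285 and 2067 bp, and none held a protein-coding start of the promoter table.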
